A study of Mus musculus with 3 samples.

Results

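The genes described here are the Wnt ligands and the proteins that receive, amplify or block them. They are 50 genes taken by symbol: every symbol that opens with Wnt, Fzd, Dkk or Sfrp and a digit, together with Axin2, Lef1, Lrp5, Lrp6, Rspo1 to Rspo4, Lgr4 to Lgr6 and Wif1. The rule itself uses no measured value, but it was chosen with earlier results of these data known. All 50 are among the 31253 genes listed for skin and the 32285 listed for ganglia. By role they are 19 Wnt ligands, 10 Frizzled receptors, 2 co-receptors, 4 R-spondins, 3 R-spondin receptors, 4 Dickkopf proteins, 5 Wnt-binding inhibitors, 2 intracellular genes (Axin2 and Lef1) and Fzd10os, a transcript antisense to Fzd10.

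The series title concerns stress, sympathetic nerves and eosinophils in inflamed skin, and each of its 3 groups is 1 library. The control skin library holds cells enriched with CD45 beads from mice treated with MC903, a vitamin D analogue that inflames skin. The RHS skin library holds cells enriched in the same manner from mice that received RHS as well as MC903, and RHS is not spelled out in the labels. The ganglia library holds nuclei of sympathetic ganglia (SCG, STG, T2-T4 and CG) pooled from 30 mice, described as RHS- and MC903-treated in one label and as MC903-challenged in the protocol, and it has no control. The protocol also names EtOH-treated mice, whereas the control library is labelled as MC903-treated. Strain, age, genotype and the number of mice per skin library are not given in the sources used here.

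Wnt ligands are secreted lipid-modified proteins that bind Frizzled receptors together with the co-receptors Lrp5 or Lrp6, which stabilises beta-catenin and lets it act with Lef1 and related factors on target genes such as Axin2. R-spondins, through the receptors Lgr4, Lgr5 and Lgr6, keep Frizzled proteins at the cell surface, Dickkopf proteins bind Lrp5 and Lrp6, and Sfrp proteins and Wif1 bind the ligands themselves. In skin the pathway is known for its part in hair follicle formation and cycling, where epithelial and dermal cells exchange these signals.

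The results below turn mainly on Wnt11, Dkk2, Wif1, Lef1 and Axin2, so the 250 bases before their annotated starts are shown, in the order of that list. They come from RefSeq on GRCm38.p6, a build other than the GRCm39 of the deposited files, and all lie on the plus strand, at chr7:98834862-98835111, chr3:132085042-132085291, chr10:121033754-121034003, chr3:131110047-131110296 and chr11:108920099-108920348. Capitals mark 2 motifs searched on both strands, the TCF/LEF core (ATCAAAG or TTCAAAG) and TATAAA, which can share no more than 1 base. RefSeq lists 2 windows for Wnt11 and 4 for Lef1, of which 1 each is shown.
Wnt11: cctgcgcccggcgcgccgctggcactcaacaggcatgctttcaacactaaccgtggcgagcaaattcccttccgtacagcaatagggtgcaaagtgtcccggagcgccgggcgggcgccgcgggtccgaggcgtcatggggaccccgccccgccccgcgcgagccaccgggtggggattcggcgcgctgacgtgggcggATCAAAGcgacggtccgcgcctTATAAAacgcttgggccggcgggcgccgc
Dkk2: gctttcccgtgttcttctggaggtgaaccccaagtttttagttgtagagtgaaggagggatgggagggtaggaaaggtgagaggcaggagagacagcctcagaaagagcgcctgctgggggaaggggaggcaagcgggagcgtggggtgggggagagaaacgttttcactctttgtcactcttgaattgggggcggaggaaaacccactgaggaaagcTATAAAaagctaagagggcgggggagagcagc
Wif1: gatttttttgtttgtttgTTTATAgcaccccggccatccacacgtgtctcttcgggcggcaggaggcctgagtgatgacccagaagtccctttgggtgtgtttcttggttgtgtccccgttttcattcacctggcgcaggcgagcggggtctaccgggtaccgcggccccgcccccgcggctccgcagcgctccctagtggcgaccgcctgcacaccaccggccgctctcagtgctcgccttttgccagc
Lef1: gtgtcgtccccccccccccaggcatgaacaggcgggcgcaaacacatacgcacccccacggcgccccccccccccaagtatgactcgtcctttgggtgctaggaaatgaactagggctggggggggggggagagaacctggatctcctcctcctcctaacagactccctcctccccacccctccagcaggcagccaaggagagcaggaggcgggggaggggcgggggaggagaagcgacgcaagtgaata
Axin2: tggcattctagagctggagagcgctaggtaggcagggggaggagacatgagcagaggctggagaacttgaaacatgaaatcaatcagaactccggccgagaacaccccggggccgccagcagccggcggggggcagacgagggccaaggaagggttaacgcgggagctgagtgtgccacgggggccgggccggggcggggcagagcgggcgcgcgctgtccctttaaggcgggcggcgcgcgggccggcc
The Wnt11 window held 1 TCF/LEF core, beginning at position -51 from the start, and 1 TATAAA at -29. The Dkk2 window held TATAAA at -32, the Wif1 window held it on the minus strand (as TTTATA) at -232, and neither motif was found in the windows of Lef1 and Axin2. Over 32851 windows of the same length, 7.48% held the TCF/LEF core and 12.4% held TATAAA. Promoter entries matched 32 of the 50 genes, and 3 of these held the core (Dkk1, Wnt11 and Wnt5b). These matches are descriptions of letters, with no binding measured here.

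After filtering, 12577 control cells, 12953 RHS cells and 4507 ganglia nuclei were kept, with medians of 3233, 3101 and 1542 unique molecular identifiers (UMIs, counts of single captured RNA molecules). The CD45 label was checked with Ptprc, the gene of CD45: it lay between 108.5 and 1086 CPM (counts scaled to a common total in each cluster) in the clusters of immune cells of either library and between 1.75 and 44.2 CPM in the others. Stromal, epithelial and vascular cells were thus present in the CD45-enriched libraries, and how many of them passed the beads may set their shares. With 1 library per group there is no test of the condition. Levels are CPM of a cluster's summed counts with exact Poisson 95% intervals, and a ratio is RHS over control with an exact conditional 95% interval; both cover counting error only, not the spread between cells or mice. A ratio is called higher or lower past 1.5 times either way, among genes with at least 20 counts in the library with more counts and clusters with at least 50 cells in each library. Genes mostly pass that minimum through the library with more UMIs of the cluster. Clusters are named "-like" from marker lists, and otherwise by leading genes. The cluster in which a gene was highest is taken among those with at least 20 UMIs of it, in skin over both libraries and then in each library by itself. Of 38 such genes in skin, 27 had the same highest cluster in both libraries and 11 did not. Some of the 27 rested on few UMIs in RHS, such as 1 of Wnt3 and 3 of Fzd3.

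In skin, 38 of the 50 genes reached 20 UMIs in at least 1 cluster. The other 12 were Wnt1, Wnt2, Wnt2b, Wnt3a, Wnt7a, Wnt7b, Wnt8a, Wnt8b, Wnt9b, Fzd9, Dkk1 and Dkk4, with 0 to 20 UMIs over both libraries and none at all for Wnt8a and Dkk4. Non-immune clusters held 70.6% of the members' 20103 UMIs in control and 53.3% of 13789 in RHS, and 33.0% and 19.1% of the UMIs of all genes, so the lower share in RHS ran beside a lower share of all RNA. Of Wnt-binding inhibitor UMIs, 98.1% in control and 97.2% in RHS lay outside immune clusters, and of R-spondin UMIs 97.1% and 95.0%. Of Wnt ligand UMIs 44.0% and 27.2% did so, but without Wnt11 94.6% and 90.3%. The heat map of levels by cluster shows these differences.

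**Figure D1:**
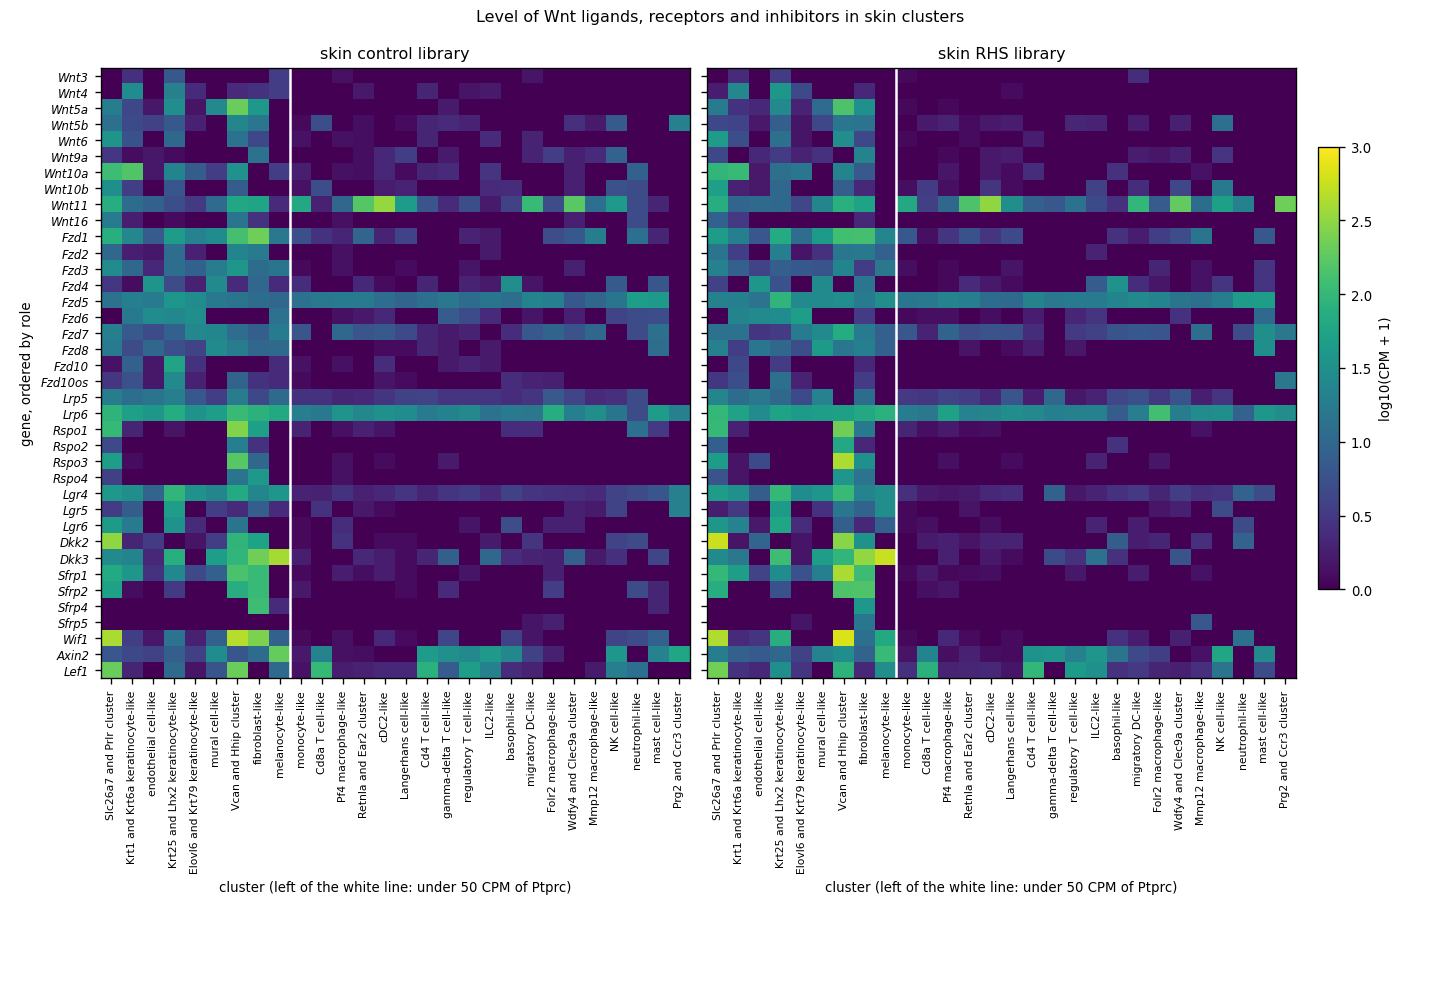
Heat map of the level of each measured gene (y axis, grouped by role) in each skin cluster (x axis), as log10 of CPM plus 1 in the control and the RHS library. Brighter colours are higher levels, and clusters left of the white line have under 50 CPM of Ptprc. Most genes are bright there, whereas Wnt11 is brightest in the cDC2-like cluster and Lef1 is bright in T cell clusters also.

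Among the ligands, Wnt11, which is best known for signalling without beta-catenin, had most of its UMIs in antigen-presenting cells of these CD45-enriched libraries. In the cDC2-like cluster, which has markers of type 2 conventional dendritic cells, it had 1417 UMIs in 507 of 736 control cells and 1068 in 388 of 621 RHS cells. That is 332 CPM (315 to 350) and 319 CPM (301 to 339), a ratio of 0.961 (0.887 to 1.04), and it makes up 42.4% of the gene's UMIs in control and 35.0% in RHS. The 2 libraries overlapped in their intervals. The Retnla and Ear2 cluster stood at 160 and 144 CPM of Wnt11, the Wdfy4 and Clec9a cluster at 170 and 187 CPM, and the migratory DC-like cluster at 108 and 96.7 CPM. Monocyte-like cells were lower, at 62.9 and 64.3 CPM, and Langerhans cell-like cells lower again, at 45.1 and 29.4 CPM. Among other immune cells, NK cell-like cells stood at 41.5 and 49.3 CPM of Wnt11 from 27 and 26 UMIs, while the mast cell-like cluster had 1 and 0 UMIs and the Cd8a T cell-like cluster 1 and 8. Stromal clusters stood near the monocyte-like level. Wnt11 was at 72.25 and 73.9 CPM in the Slc26a7 and Prlr cluster and at 60.2 and 78.3 CPM in the Vcan and Hhip cluster. In fibroblast-like cells it was at 55.9 and 52.3 CPM. In the small Prg2 and Ccr3 cluster, named for an eosinophil granule gene and an eotaxin receptor gene, Wnt11 had 0 UMIs in 70 control cells (interval up to 70.2 CPM) and 15 UMIs in 11 of 99 RHS cells (219 CPM, 123 to 361). These cells had medians of 644 and 627 UMIs, and their count is under the minimum for a ratio.

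**Figure D2:**
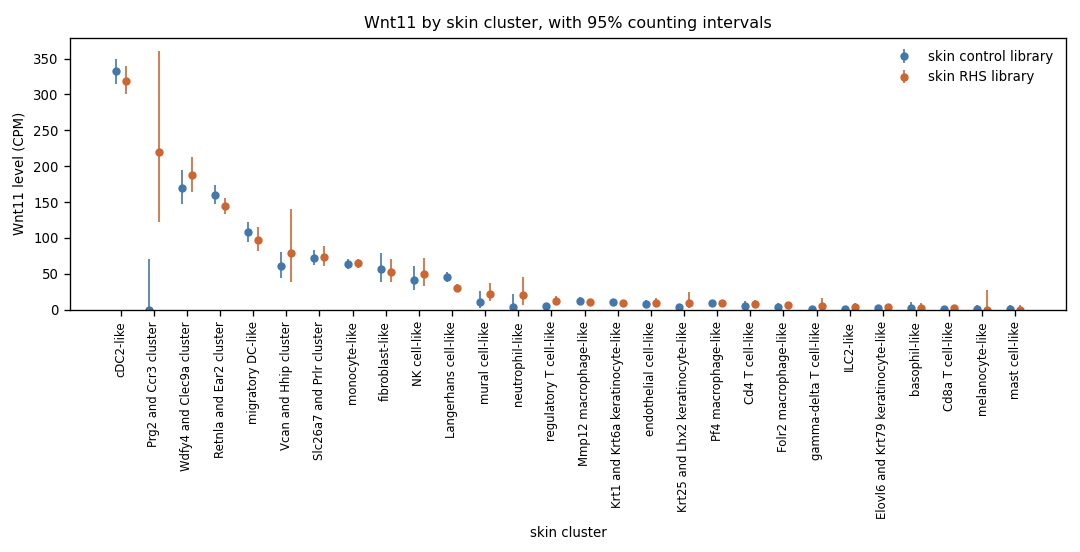
Wnt11 level in CPM (y axis, linear) by skin cluster (x axis) for the control (blue) and the RHS library (orange), with exact Poisson 95% intervals as bars. The cDC2-like cells lie highest in both libraries, at 332 and 319 CPM, and the wide RHS interval of the Prg2 and Ccr3 cluster rests on 15 UMIs.

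The ratio of Wnt11 was measured in 14 clusters and stayed within 1.5 times in 12 of them, including the stromal ones. In Langerhans cell-like cells it was 0.653 (0.516 to 0.822), from 192 and 124 UMIs. Its log2 ratio of -0.62 was -0.48 and -0.51 at Leiden resolutions 0.5 and 2.0 and -0.31 with each library clustered alone, all within the limit of 1.5 times. In regulatory T cell-like cells it was 2.89 (1.28 to 7.14), from only 9 and 22 UMIs, and its log2 value of 1.53 became 3.06 with each library clustered alone. These 2 ratios lay on opposite sides of 1, at levels far below those of the cDC2-like cells.

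The other ligands had their highest levels in epithelial and stromal clusters, although 66.0% of the 47 control UMIs of Wnt9a lay in immune clusters. Of the 43 UMIs of Wnt9a in RHS, 72.1% lay outside immune clusters. Wnt10a and Wnt4 are known from epidermis and hair follicle. Wnt10a was highest in the Krt1 and Krt6a keratinocyte-like cluster in both libraries, and Wnt4 there in control but in the Krt25 and Lhx2 keratinocyte-like cluster in RHS (37.3 CPM from 16 UMIs). In the Krt1 and Krt6a cluster Wnt10a had 584 and 244 UMIs, or 154 CPM (142 to 167) in control and 105 CPM (92.5 to 119) in RHS, while Wnt4 was at 28 and 23.7 CPM. The Wnt10a intervals did not overlap, with a ratio of 0.683 (0.586 to 0.794), just inside the 1.5-fold limit. In the cDC2-like cluster Wnt10a had 5 and 2 UMIs. Wnt10b, Wnt16 and Wnt6 in both libraries, and Wnt5b in control, were highest in the Slc26a7 and Prlr cluster. That large cluster stayed unnamed, with 2 of 5 markers of its nearest list, a stromal one, and is called stromal here on that basis. It had Pdgfra at 206 and 286 CPM. The fibroblast list, which holds Pdgfra, had a marker score (mean log2 fold over other clusters) of at most 0.0334, against 2.45 for the nearest list. Krt14 was at 23.2 and 20.7 CPM there, against 3552 and 3246 CPM in the keratinocyte-like cluster. Wnt5a, a ligand of the beta-catenin-independent branch, was highest in the Vcan and Hhip cluster, at 207 CPM (176 to 243) in control and 142 CPM (87.0 to 220) in RHS. Wnt3 was highest in the Krt25 and Lhx2 keratinocyte-like cluster, with 25 UMIs in control and 1 in RHS. Wnt9a was highest in fibroblast-like cells, at 12.2 and 20.9 CPM.

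The receptor genes were highest in several different clusters. Fzd4, a Frizzled with a known part in vessel development, was highest in endothelial cell-like cells, with 61 UMIs in each library (35.0 and 37.5 CPM). In both libraries Fzd6 was highest in the Elovl6 and Krt79 keratinocyte-like cluster, Fzd1 in fibroblast-like cells, Fzd8 in mural cell-like cells, Fzd3 in the Vcan and Hhip cluster and Fzd10os in the Krt25 and Lhx2 keratinocyte-like cluster. Fzd10 was highest in the latter in control, at 56.2 CPM. The RHS placings of Fzd3 and Fzd10os rested on 3 and 5 UMIs. Fzd3 stood in RHS at 21.4 CPM (4.41 to 62.4) in the Vcan and Hhip cluster, and at 20.0 CPM in the Slc26a7 and Prlr cluster. Fzd2 and Fzd7 were low, and their highest cluster differed between the libraries: Fzd7 stood at 24.1 CPM in Elovl6 and Krt79 cells in control and 30.4 CPM in mast cell-like cells in RHS. Reads of Fzd10 and Fzd10os cannot be told apart with certainty unless counting used the strand, which the sources used here do not give. Fzd5 was spread most widely among the Frizzled genes, measured in 19 compared clusters. It was highest in neutrophil-like cells in control, at 45.8 CPM from 12 UMIs, and in the Krt25 and Lhx2 cluster in RHS. The co-receptor Lrp6 was measured in 24 clusters, highest in the Vcan and Hhip cluster in control (103 CPM) and in Folr2 macrophage-like cells in RHS (121 CPM). Lrp5 was measured in 5, highest in the Krt25 and Lhx2 cluster in control (18.4 CPM) and the Slc26a7 and Prlr cluster in RHS (22.1 CPM).

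R-spondins were highest in stromal clusters and their receptors in stromal and keratinocyte-like ones. Rspo1, Rspo2 and Rspo3 were highest in the Vcan and Hhip cluster, where Rspo1 stood at 269 CPM in control and 221 CPM in RHS and Rspo2 at 18.7 and 64.1 CPM from 14 and 9 UMIs, and Rspo4 was highest in fibroblast-like cells. Lgr5, a marker of hair follicle stem cells, was highest in the Krt25 and Lhx2 keratinocyte-like cluster. Lgr4 stood there at 93.8 and 97.9 CPM, and in the Vcan and Hhip cluster at 66.9 and 107 CPM. Lgr6 was at 41.6 and 37.3 CPM in the Slc26a7 and Prlr cluster and at 32.7 and 58.3 CPM in the Krt25 and Lhx2 cluster. In the Slc26a7 and Prlr cluster Rspo1 was at 101 and 102 CPM, so R-spondin and receptor genes were also read in the same clusters.

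The inhibitors were mostly stromal. Dkk2 was highest in the Slc26a7 and Prlr cluster, while Wif1 and Sfrp1 were highest in the Vcan and Hhip cluster, with Wif1 at 461 CPM (414 to 513) in control and 669 CPM (541 to 819) in RHS. Sfrp2 and Sfrp4 were highest in fibroblast-like cells. Sfrp5 was highest in Schwann cell-like cells, of which there were only 38 and 44, at 328 and 184 CPM. Dkk3, a divergent Dickkopf protein, stood at 656 and 230 CPM there and at 398 and 560 CPM in melanocyte-like cells, the highest in control and in RHS respectively. Of the intracellular genes, Lef1 stood at 203 and 229 CPM in the Slc26a7 and Prlr cluster and at 100 and 83.8 CPM in Cd8a T cell-like cells, with 5 and 4 UMIs in cDC2-like cells. Lef1 is also known as a factor of naive T cells. Axin2, a feedback inhibitor induced by beta-catenin, was highest in melanocyte-like cells, at 197 CPM (167 to 230) and 103 CPM (56.4 to 173).

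Between the libraries, 28 clusters were compared and gave 176 pairs of a gene and a cluster, over 35 of the 50 genes. Of these, 35 were higher and 27 lower in RHS. Over all genes and the same clusters, 7.26% of pairs were higher and 10.4% lower. Those shares were not matched to the members' counts, or to how their pairs are spread over clusters, so an excess cannot be read from them. The interval excluded 1 in 34 of the 62. Pairs past the limit lay mostly in stromal and keratinocyte-like clusters, in which many other genes also passed it. The plot of ratios shows each pair in 5 of the clusters.

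**Figure D3:**
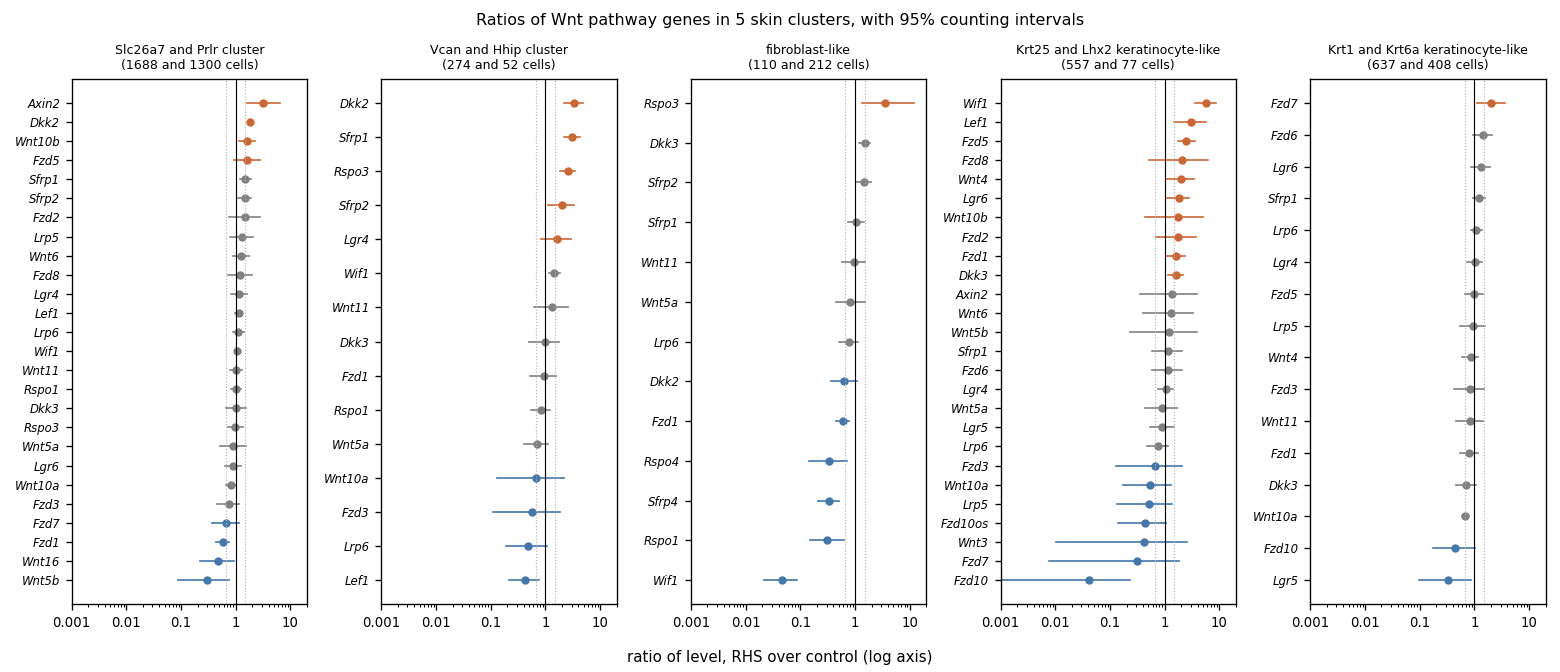
Ratio of RHS over control (log axis) for each measured gene (y axis) in 5 stromal and keratinocyte-like skin clusters, 1 point per gene with its exact 95% interval, orange where higher and blue where lower past 1.5 times (dotted lines). The lowest points are Fzd10 in the Krt25 and Lhx2 cluster (0.0415) and Wif1 in fibroblast-like cells (0.0456), and the highest is Wif1 in the Krt25 and Lhx2 cluster (5.61).

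In the Slc26a7 and Prlr cluster, which made up 13.4% of control and 10.0% of RHS cells, 4 of 26 measured genes were higher and 4 lower. Of all genes there 6.38% were higher and 14.1% lower, and the median log2 ratio was 0.12 for the members and -0.08 for all genes. Dkk2 had 805 UMIs in control and 829 in RHS, or 316 CPM (295 to 339) and 573 CPM (534 to 613), a ratio of 1.81 (1.64 to 2.00). Its levels did not overlap. Axin2 was low but higher in RHS, with 14 and 25 UMIs and a ratio of 3.14 (1.57 to 6.54). Wnt10b was at 29.8 and 48.3 CPM, a ratio of 1.62 (1.15 to 2.27) that was just within the limit with each library clustered alone (log2 0.58), while the interval of Fzd5 at 1.59 included 1. Lower were Fzd1, with 199 and 65 UMIs and a ratio of 0.574 (0.427 to 0.764), and Wnt16 at 0.472 (0.219 to 0.935). Wnt5b, at 0.293 (0.0888 to 0.763), rested on 30 and 5 UMIs, and the interval of Fzd7 at 0.660 included 1. With at least 500 genes per cell Fzd7 had a log2 ratio of 0.03. The other 18 genes lay between 0.739 and 1.49: Wif1 at 1.05 (0.95 to 1.16), Lef1 at 1.13 (0.979 to 1.30) and Rspo1 at 1.01 (0.822 to 1.25). The cluster's cells had medians of 1386 UMIs in control and 1012 in RHS. Ptprc there was at 7.46 and 12.4 CPM. The part of depth or of other cells in these ratios was not tested.

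The Vcan and Hhip cluster held 274 control cells (2.18%) and 52 RHS cells (0.401%), with 5 of 15 measured genes higher and 4 lower. Among all genes 13% were higher and 25.8% lower, and the median log2 ratio was -0.02 for the members and -0.12 for all genes. Under 4 other settings (Leiden resolution 0.5, at least 500 genes per cell, doublets kept, each library alone) this cluster had no counterpart of enough cells, so its ratios could not be computed there. The genes higher in RHS were secreted inhibitors, an R-spondin and an R-spondin receptor. Dkk2 had 67 and 41 UMIs, or 89.6 CPM (69.4 to 114) and 292 CPM (210 to 396), a ratio of 3.26 (2.15 to 4.88). Sfrp1 was at 138 and 420 CPM, a ratio of 3.05 (2.18 to 4.24), and Rspo3 at 166 and 427 CPM, a ratio of 2.58 (1.86 to 3.53). Intervals of the 2 libraries did not overlap for these 3 genes. Sfrp2 was at 1.97 (1.12 to 3.35) and Lgr4 at 1.60 (0.833 to 2.89), or 1.36 without its top cell. Lef1 was lower, with 152 and 12 UMIs and a ratio of 0.420 (0.213 to 0.756), whereas the intervals of Lrp6 at 0.484, Fzd3 at 0.571 and Wnt10a at 0.666 included 1. At Leiden resolution 2.0 the log2 ratio of Lef1 was -0.53 in place of -1.25, that of Lrp6 -0.06 in place of -1.05 and that of Wnt10a close to 0, all within the limit, while Dkk2, Sfrp1 and Rspo3 stood at 1.18, 1.42 and 1.25. Genes that describe the cells also differed: Col1a1 was at 1916 and 5169 CPM, Hhip at 412 and 1331 and Corin at 174 and 28.5. With so few RHS cells, other cell states inside the cluster and a change within a cell cannot be told apart.

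Fibroblast-like cells, with 110 control cells (0.875%) and 212 RHS cells (1.64%), had 1 of 13 measured genes higher and 6 lower, against 14.6% of all genes higher and 9.08% lower. The members' median log2 ratio was -0.39 and that of all genes 0.07. Wif1 had 146 UMIs in control and 10 in RHS, a ratio of 0.0456 (0.0214 to 0.0862). Those came from 13 of 110 and 6 of 212 cells, and 88 of the 146 from 1 cell. Without the cell with most UMIs in each library the ratio was 0.0803 (0.0309 to 0.176), and with each library clustered alone the log2 ratio was -2.76 in place of -4.46. Sfrp4 had 67 and 33 UMIs, 24 of the control UMIs in 1 cell, and a ratio of 0.328 (0.209 to 0.504). Rspo1 at 0.309 (0.147 to 0.616) and Rspo4 at 0.333 (0.146 to 0.716) were lower by a like factor. Fzd1 was at 218 and 129 CPM, a ratio of 0.591 (0.453 to 0.769), and the interval of Dkk2 at 0.622 included 1. With each library clustered alone the log2 ratio of Dkk2 was -0.09. Rspo3 was the gene that was higher, with 5 and 27 UMIs and a ratio of 3.59 (1.36 to 11.95). Dkk3 at 1.49 (1.20 to 1.85) and Sfrp2 at 1.43 (1.04 to 1.99) lay within the limit. The collagen gene Col1a1 was at 48034 and 32014 CPM. Its part in the ratios was not tested.

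Keratinocyte-like cells formed 3 clusters. The Krt25 and Lhx2 cluster held few cells of the RHS library, 77 (0.594%) against 557 of control (4.43%), and with each library clustered alone it had no RHS counterpart of 50 cells. Of 26 measured genes 10 were higher and 7 lower, and of all genes 9.65% and 19.5%, with median log2 ratios of 0.24 and -0.07. Fzd10 had 253 UMIs in control and 1 in RHS, a ratio of 0.0415 (0.00105 to 0.233), and Fzd10os had 119 and 5, a ratio of 0.441 (0.141 to 1.06). Wif1 had 58 and 31 UMIs, a ratio of 5.61 (3.50 to 8.82). The cell with most UMIs held 10 of these in control and 13 in RHS, and without those cells the ratio was 3.935 (2.15 to 6.89). Lef1 was at 10.0 and 30.3 CPM, a ratio of 3.03 (1.5 to 5.72), and Fzd5 at 36.4 and 90.9 CPM, a ratio of 2.50 (1.71 to 3.56). Smaller ratios with intervals above 1 were those of Wnt4 at 1.95, Lgr6 at 1.79, Fzd1 at 1.60 and Dkk3 at 1.58. Fzd8 at 2.10, Wnt10b at 1.75 and Fzd2 at 1.71 were higher, and Lrp5 at 0.506, Wnt10a at 0.541, Wnt3 at 0.420, Fzd7 at 0.309 and Fzd3 at 0.656 lower, with intervals that included 1. Without the cell with most UMIs in each library, Wnt4 (1.499), Fzd1 (1.37), Dkk3 (1.49), Fzd2, Fzd8 and Wnt10b no longer passed the limit, Wnt10b with a log2 ratio of -0.07. Lgr4 at 1.04 (0.742 to 1.44) and Lgr5 at 0.908 (0.528 to 1.47) lay near 1. The marker Krt25 was at 215 and 382 CPM, Dlx3 at 317 and 208, Krt17 at 1077 and 641, Dct, a melanocyte gene, at 35.6 and 131, and Dcn, a fibroblast gene, at 109 and 357. Median UMIs were 7451 and 4698. Their part in the ratios was not tested.

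In the Krt1 and Krt6a keratinocyte-like cluster (5.06% and 3.15% of cells) 1 of 16 measured genes was higher and 2 lower, with 4.89% and 8.49% of all genes. Fzd7 was at 1.99 (1.11 to 3.62), Lgr5 at 0.327 (0.0977 to 0.869) from 25 and 5 UMIs, and the interval of Fzd10 at 0.451 included 1. With each library clustered alone Lgr5 had a log2 ratio of 0.25. In the Elovl6 and Krt79 cluster, with 214 and 213 cells, 2 of 7 were higher and 1 lower, and 5.79% and 7.12% of all genes were. Fzd6, a Frizzled known for orienting hairs, had 68 and 101 UMIs, a ratio of 1.57 (1.15 to 2.17), and Wnt10a 15 and 30, a ratio of 2.12 (1.11 to 4.24). Fzd1 was lower there at 0.530 (0.307 to 0.892). Melanocyte-like cells, 163 and 55 in number, had Axin2 at 0.525 (0.280 to 0.907), from 157 and 14 UMIs. It was the 1 of 4 measured genes past the limit there, while of 5203 genes in all 578 were higher and 1545 lower. Median UMIs of these cells were 4369 in control and 1893 in RHS. The part of depth in that ratio was not tested.

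Vascular and immune clusters gave few pairs past the limit. In mural cell-like cells Fzd8, Fzd1 and Lgr4 were at 1.66, 1.51 and 1.63 (3 higher and 0 lower of 5, with 11.9% and 7.97% of all genes), and in endothelial cell-like cells Fzd8 was at 1.54 (1 of 6, with 6.4% and 8.92%). The intervals of those 4 ratios included 1. Of 5 genes each in monocyte-like and in Mmp12 macrophage-like cells, 0 passed the limit, where 6.01% and 9.12% of all genes were higher and 6.1% and 6.14% lower. In Folr2 macrophage-like cells, the co-receptor Lrp6 had 88 and 233 UMIs, or 73.5 CPM (58.9 to 90.5) and 121 CPM (106 to 138), a ratio of 1.65 (1.29 to 2.13). The levels did not overlap, and with doublets kept the log2 ratio of 0.72 was 0.58, just within the limit. Pf4 macrophage-like cells had an Lrp6 ratio of 1.49 (1.19 to 1.89), just inside the limit. The remaining immune pairs past it had intervals that included 1, apart from the Wnt11 pairs above. In regulatory T cell-like cells 2 of 5 genes were higher, Wnt11 and Fzd5 at 1.51, with 3.56% of all genes higher and 9.95% lower. Fzd5 was also at 1.81 in Cd4 T cell-like cells, Lrp6 at 1.61 and Lef1 at 1.55 in ILC2-like cells, Axin2 at 1.59 in NK cell-like cells, Lrp5 at 1.85 in Langerhans cell-like cells and Fzd1 at 0.564 in the Retnla and Ear2 cluster. With each library clustered alone the log2 ratio of Lef1 in ILC2-like cells was -0.37 and that of Fzd1 in the Retnla and Ear2 cluster 0.03. Lef1 in T cells stayed within 1.5 times, at 0.837 (0.669 to 1.05) in Cd8a, 1.15 (0.864 to 1.55) in Cd4 and 0.924 (0.674 to 1.26) in regulatory T cell-like cells.

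Another 51 genes of the pathway, in 7 lists from ligand secretion to nuclear cofactors, were counted in the same manner. In the Slc26a7 and Prlr cluster 5 of 38 measured were higher and 6 lower, with a median log2 ratio of 0.09. Sostdc1, a secreted Wnt and BMP antagonist, was highest at 1.76, and the feedback inhibitor Nkd2 lowest at 0.402, from 910 and 208 UMIs. In the Vcan and Hhip cluster 5 of 28 were higher and 4 lower (median -0.03), with Sostdc1 at 7.45 (6.15 to 9.03), Frzb, a secreted Wnt antagonist, at 2.16 and Kremen1, a Dickkopf receptor, at 1.94. Of 21 measured in fibroblast-like cells 5 were higher and 2 lower, beside 14.6% and 9.08% of all genes. In the Krt25 and Lhx2 cluster 5 and 7 of 40 were, beside 9.65% and 19.5% of all genes. In the Krt1 and Krt6a cluster 2 and 4 of 35 were, beside 4.89% and 8.49% of all genes. The shares of all genes were 6.38% and 14.1% in the Slc26a7 and Prlr cluster, and 13% and 25.8% in the Vcan and Hhip cluster.

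In the ganglia library 21 of the 50 genes reached 20 UMIs in a cluster, 20 of which also did so in skin. Wnt2 was the exception. Wnt10a, Wnt1, Wnt8a and Fzd9 had 0 UMIs there, and the other 25 had fewer than 20 in each cluster. The library held many nuclei of adipocyte-like, vascular, fibroblast-like and mesothelial-like types, and 109 of its 4507 nuclei were noradrenergic neuron-like, in which Th was at 184 CPM and Dbh at 297 CPM. The Clps and Hbb-bs cluster, of 113 nuclei, also had 8 of 8 noradrenergic markers. It stayed unnamed because more markers of another class, haemoglobin genes, were among its top genes. The ganglia levels describe nuclei of 1 pooled library, were normalised apart from skin, and are not set against it.

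**Figure D4:**
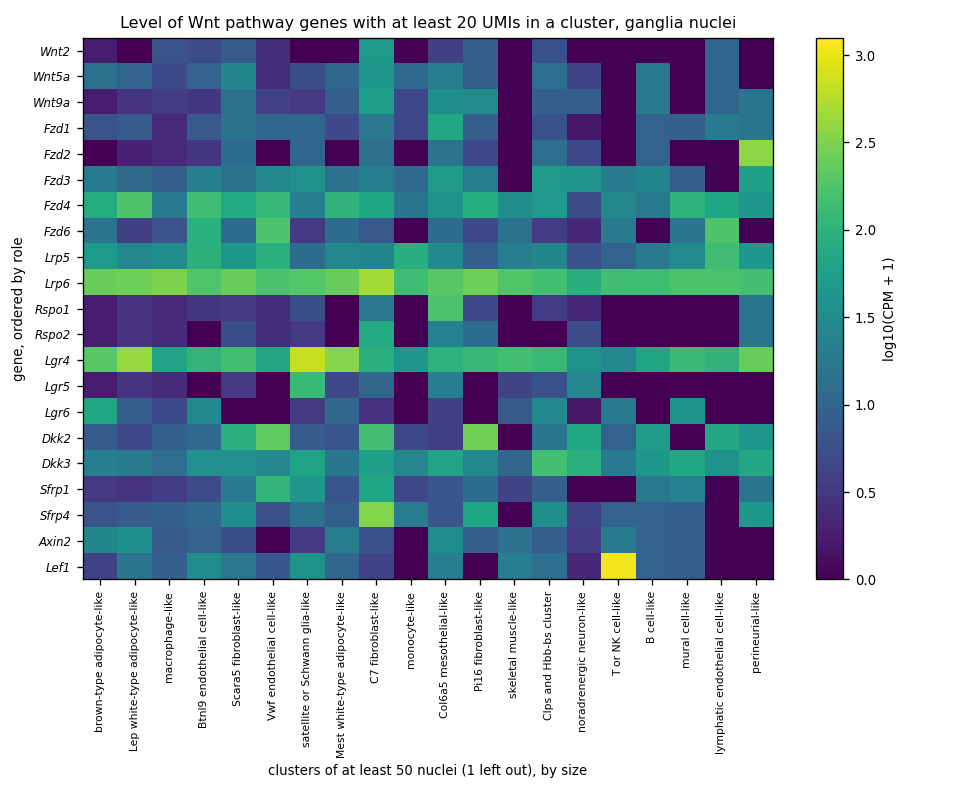
Heat map of the level of each measured gene (y axis) in the ganglia clusters of at least 50 nuclei (x axis, 1 cluster left out), as log10 of CPM plus 1 in the single ganglia library. Brighter colours are higher levels: Lgr4 is bright in glia-like and adipocyte-like nuclei and Lef1 in T or NK cell-like nuclei, and the 3 Wnt ligands are brightest in C7 fibroblast-like nuclei.

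Of the ligands, Wnt2, Wnt5a and Wnt9a reached the minimum, all 3 in C7 fibroblast-like nuclei only, with 29, 26 and 35 UMIs in 16, 20 and 23 of 221 nuclei. The same nuclei had 208 UMIs of Sfrp4 (332 CPM, 289 to 381) and 293 of Lrp6. Rspo2 stood there at 76.7 CPM (56.5 to 102), from 48 UMIs in 14 nuclei, and Rspo1 was highest in Col6a5 mesothelial-like nuclei, at 166 CPM (126 to 214).

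Among receptors, Lgr4 was highest in satellite or Schwann glia-like nuclei, with 294 UMIs in 129 of 248 nuclei (677 CPM, 602 to 759), followed by Lep white-type adipocyte-like nuclei at 418 CPM (380 to 459). Those intervals did not overlap. Lgr5 was highest in glia-like nuclei too, at 127 CPM (95.4 to 165), and Lgr6 in brown-type adipocyte-like nuclei, at 70.9 CPM (57.2 to 87.0). Fzd4 stood at 173 CPM (149 to 201) in Lep white-type adipocyte-like and 142 CPM (110 to 180) in Btnl9 endothelial cell-like nuclei, which overlapped. Fzd6 was highest in Vwf endothelial cell-like nuclei at 167 CPM, Fzd2 in perineurial-like nuclei at 370 CPM from 25 UMIs, and Fzd1 in Col6a5 mesothelial-like nuclei at 68.6 CPM. Noradrenergic neuron-like nuclei had the highest level of Fzd3, a Frizzled known for guiding axons, with 64 UMIs in 39 of 109 nuclei (40.5 CPM, 31.2 to 51.7). Axin2 was measured in 2 clusters, both adipocyte-like, at 34.8 and 25.4 CPM. The co-receptor Lrp5 was highest in Btnl9 endothelial cell-like nuclei, at 98.1 CPM (72.1 to 130.5) from 47 UMIs. In Vwf endothelial cell-like nuclei Lrp5 stood at 91.3 CPM (69.5 to 117.8), which overlapped.

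Of the inhibitors, Dkk2 was at 272 CPM (213 to 343) in Pi16 fibroblast-like and 221 CPM (187 to 261) in Vwf endothelial cell-like nuclei, overlapping. Dkk3 had 145 UMIs in 63 of 109 noradrenergic neuron-like nuclei, or 91.7 CPM (77.4 to 108). It was at 144 CPM (109 to 186) in the unnamed Clps and Hbb-bs cluster, which also had 8 of 8 noradrenergic markers. Sfrp1 was highest in Vwf endothelial cell-like nuclei, at 111 CPM. Lef1 had 123 UMIs in 46 of 88 T or NK cell-like nuclei, 1067 CPM (887 to 1273), and 63 UMIs in 12 of the 14 nuclei of the Greb1l cluster.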

How the data were processed

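Single cells of mouse skin (BD Rhapsody) and nuclei of sympathetic ganglia (10x 3' v3.1) were sequenced, 1 library per group. The authors deposited UMI counts per gene and barcode as sparse matrices, with at least 500 UMIs in each barcode. Per the submitters' processing notes they used GRCm39, R 3.6.0, Seurat 5.1.0 and Cell Ranger, and the ganglia matrix names Cell Ranger 7.1.0 per the file headers; no tool is named there for the skin matrices alone. Depth was 55200784 UMIs in 12979 control barcodes, 52762576 in 13339 RHS barcodes and 11101393 in 4706 ganglia barcodes, and 5 barcodes occur in both skin libraries.

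From the deposited counts, cells with fewer than 200 genes, over 20% mitochondrial UMIs in skin or 5% in ganglia, and called doublets (146, 115 and 2) were removed. The doublet caller marked 0.0444% of ganglia nuclei, so doublets there may remain. Skin cells were clustered together (scanpy 1.11.5, 2000 variable genes without the members, 30 components, 15 neighbours, Leiden resolution 1.0) and ganglia nuclei apart, and clusters were named from 30 and 20 marker lists. The naming rule was set after seeing the clusters. Counts were summed per library and cluster. Intervals are exact at 95% (Poisson, conditional binomial and, for shares of cells, Clopper-Pearson; scipy 1.17.1), and a count of 0 was set at 3 counts. Ratio intervals were tested on simulated Poisson counts only. That is the model they assume, so the spread between cells or mice was not covered. UMIs of near-identical genes may be split between them by the authors' counting.

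The members and lists were chosen with earlier results of these data known. Each member with 20 UMIs in its highest cluster was described, and each ratio past 1.5 times was named. Alternatives were other resolutions, gene minimums, doublets kept, members kept in clustering, each skin library clustered alone, CPM without mitochondrial and ribosomal genes, other count minimums and a fold of 2. Added after seeing the data were counts without the 2 clusters with fewest RHS cells for their size, and ratios without the cell with most UMIs. Results of 1 ganglia cluster are not reported here.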

Additional observations from a re-analysis of the deposited data

Results flagged for a closer look

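Some genes had ratios of RHS over control past 1.5 times in opposite directions in different skin clusters, each with an interval that excluded 1. Lef1 was at 3.03 in the Krt25 and Lhx2 keratinocyte-like cluster and 0.420 in the Vcan and Hhip cluster, where a log2 ratio of -0.53 at Leiden resolution 2.0 was within the limit. Fzd1 was at 1.60 in the Krt25 and Lhx2 keratinocyte-like cluster and at 0.574 in the Slc26a7 and Prlr cluster, 0.530 in the Elovl6 and Krt79 keratinocyte-like cluster and 0.591 in fibroblast-like cells. Without the cell with most UMIs in each library, Fzd1 in the Krt25 and Lhx2 cluster was at 1.37 (0.863 to 2.08), within the limit and with an interval that included 1. Wif1 was at 5.61 in the Krt25 and Lhx2 keratinocyte-like cluster and 0.0456 in fibroblast-like cells. Without the cell with most UMIs in each library these Wif1 ratios were 3.935 (2.15 to 6.89) and 0.0803 (0.0309 to 0.176). Wnt11 was at 2.89 in regulatory T cell-like and 0.653 in Langerhans cell-like cells, where 3 alternatives left the log2 ratio within the limit, at -0.51 to -0.31. Axin2 was at 3.14 in the Slc26a7 and Prlr cluster and 0.525 in melanocyte-like cells, where 1545 of 5203 measured genes were also lower. With 1 library per group, the difference between clusters was not tested for any of these genes.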

How the results depend on the processing

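Main counts were 35 pairs of a gene and a cluster higher in RHS and 27 lower. With each skin library clustered alone they were 23 and 13, with at least 50 counts 15 and 12, with at least 10 counts 67 and 42, and with a fold of 2 they were 11 and 14. Without the Krt25 and Lhx2 and the Vcan and Hhip clusters, an alternative added after seeing the data, they were 20 and 16. The other alternatives gave 29 to 37 higher and 20 to 25 lower. No share over all genes is given beside the counts of these alternatives. Of the pairs past the limit, 5 changed sign in log2 ratio under 1 alternative each: Fzd7 in the Slc26a7 and Prlr cluster (0.026 with at least 500 genes per cell), Fzd1 in the Retnla and Ear2 cluster (0.027), Lgr5 in Krt1 and Krt6a keratinocyte-like cells (0.25) and Lef1 in ILC2-like cells (-0.37), each library clustered alone, and Wnt10b in Krt25 and Lhx2 keratinocyte-like cells (-0.068, without the cell with most UMIs). Of the 62 pairs past the limit, 39 stayed past it under each alternative that gave a value and 23 came within it in at least 1. The cause was not tested. Not every alternative gave a value for each pair, since clusters had no counterpart or fewer than 50 cells there. The number of genes reaching 20 UMIs stayed at 38 in skin and 21 in ganglia under all clusterings run, and was 32 and 14 at 50 UMIs and 39 and 25 at 10. No paired analysis was possible because each group is 1 library. Ratios that rest on under 20 UMIs in a library have wide intervals, and small differences in such genes were not detectable at this depth.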
